A study of Homo sapiens with 6 samples.

Results

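ZEB1, ZEB2, SNAI1, SNAI2, SNAI3, TWIST1, TWIST2, TCF3, TCF4 and PRRX1 encode transcription factors that can drive the epithelial-mesenchymal transition (EMT). They were followed in RNA that co-precipitated with AGO2, the Argonaute protein that carries microRNAs to their target transcripts. The 10 genes were chosen by name. Like the gene lists used below, they were chosen with earlier results of these data known. For each of the 10 genes, the probe set annotated to that gene alone was read. Where a gene had several, the brightest over the 6 arrays was taken. All 10 genes were found among 18417 genes with such a probe set. PC3, a prostate cancer line that grows without androgen, was transfected with a mimic of miR-205 (3 arrays) or with a negative control mimic (3 arrays). The submitters describe each set of 3 as biological triplicates. Every array of both groups was hybridised with RNA from an immunoprecipitation with the anti-Ago2 antibody 11A9. The labels give no mimic dose and no time after transfection, and all cells come from this 1 line. Input RNA was not analysed here, so the amount of a transcript in the cells and the share of it bound to AGO2 cannot be told apart in any value below. Of the 6 arrays, negative control replicate 2 stood apart. Over all genes, control arrays differed from one another by an SD of 0.155 without it and of 0.215 to 0.218 with it. It also lay closer to the miR-205 arrays (SD 0.275 to 0.284) than the other control arrays did (0.322 to 0.339). Results that rest on it are therefore also given without it.

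EMT is the programme by which epithelial cells give up cell-cell junctions and gain motility. ZEB1 and ZEB2 are zinc finger homeodomain repressors that bind E-box motifs in epithelial promoters and recruit CtBP corepressors. Snail and Slug, the products of SNAI1 and SNAI2, bind similar motifs through zinc fingers. TWIST1 and TWIST2 are basic helix-loop-helix factors that pair with the E proteins encoded by TCF3 (E2A), TCF4 (E2-2) and TCF12. TCF4 here is that E protein gene and not TCF7L2, whose product is sometimes called TCF-4. miR-205 and the miR-200 family are widely reported to target ZEB1 and ZEB2, and ZEB1 in turn represses the miR-200 genes.

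The mature miR-205 strand is shown beside the miR-200 family because both are reported to act on the same transcripts through different seeds. The seed, bases 2 to 8 from the 5′ end, is in capitals, and all 6 sequences matched RefSeq entries on GRCh38.p14.
hsa-miR-205-5p: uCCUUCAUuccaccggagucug
hsa-miR-200b-3p: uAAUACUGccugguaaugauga
hsa-miR-200c-3p: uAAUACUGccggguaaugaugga
hsa-miR-429: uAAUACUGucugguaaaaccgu
hsa-miR-200a-3p: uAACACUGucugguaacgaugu
hsa-miR-141-3p: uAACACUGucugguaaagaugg
The miR-200b, miR-200c and miR-429 strands share the seed AAUACUG, the miR-200a and miR-141 strands share AACACUG, and miR-205 carries CCUUCAU.

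ZEB1 and both E protein genes of the set, TCF4 and TCF3, were lower with the miR-205 mimic, and no gene of the set was called higher. SNAI1 leaned upward and SNAI2 downward without passing, and the TWIST genes, SNAI3, ZEB2 and PRRX1 did not pass. Values are log2 intensities after RMA, in which a difference of 1 is a 2-fold change. Changes were tested with limma over all 18417 genes, and a gene passed at a Benjamini-Hochberg adjusted p under 0.05. By that rule 3 of the 10 genes fell and 0 rose (1 higher and 5 lower at an unadjusted p under 0.05). Over all genes 14.0% fell, 12.6% rose and 26.6% changed either way, so the 30% of the set that changed lies near the share over all genes. The median change of the set was -0.15, against -0.02 over all genes.

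**Figure D1:**
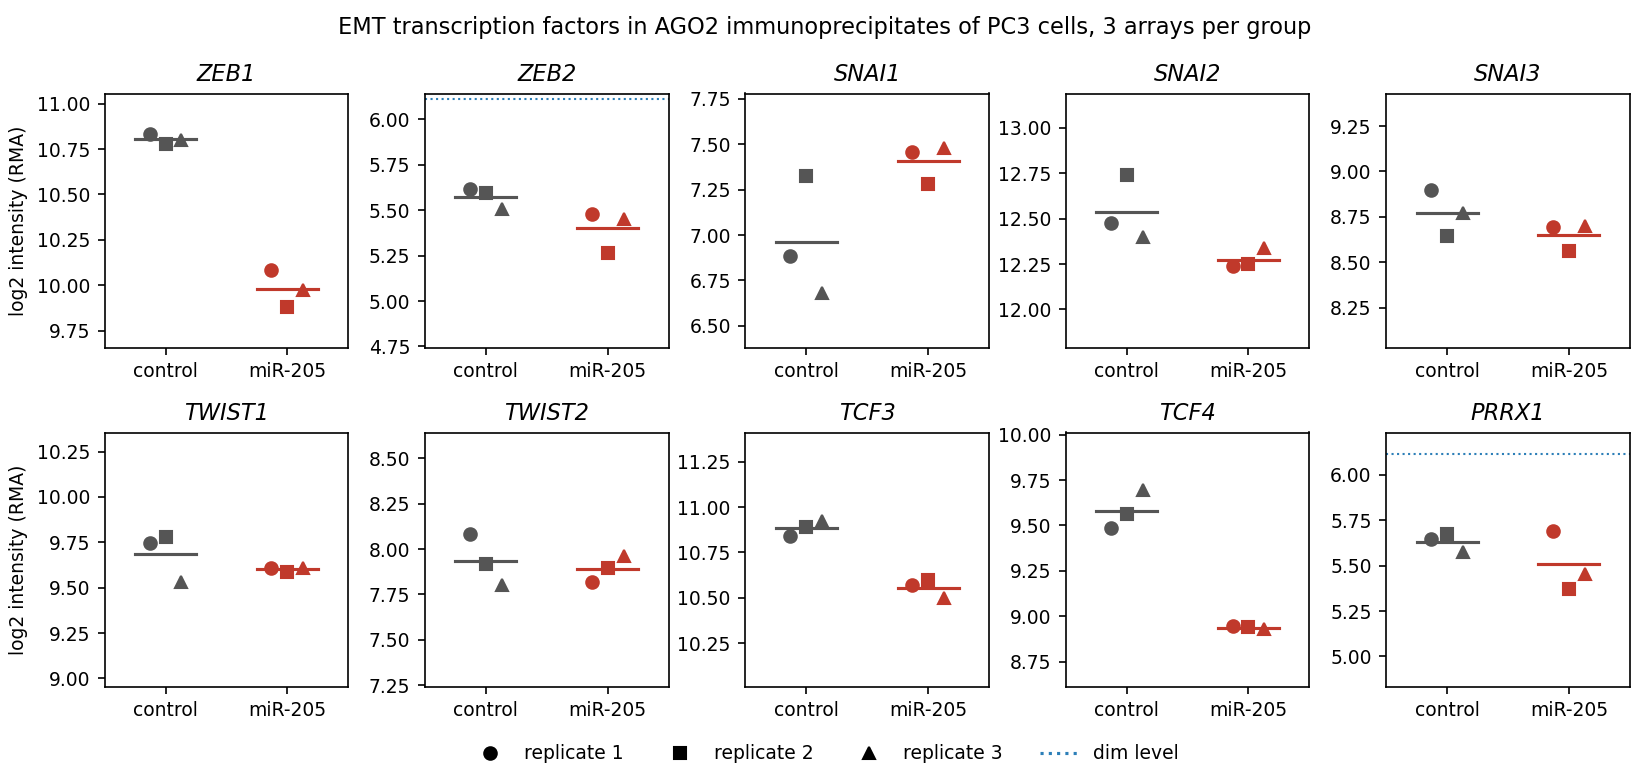
Log2 intensity of the 10 transcription factor genes on each array (points, shaped by replicate number) with the group mean (line), for the negative control (grey) and miR-205 (red) groups. Every panel spans the same height, and the dotted line in the ZEB2 and PRRX1 panels is the dim level of 6.12. ZEB1, TCF3 and TCF4 show gaps between the groups, while in SNAI1 negative control replicate 2 lies among the miR-205 arrays.

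ZEB1 stood at 10.8, 10.8 and 10.8 in the control arrays and at 10.1, 9.88 and 9.98 in the miR-205 arrays, in the order of replicates 1 to 3. All miR-205 arrays lay below all control arrays, and the gap was far wider than the spread within either group. The mean fell from 10.8 ± 0.03 to 9.98 ± 0.10 (SD, n = 3 each), a change of -0.82 ± 0.07 (SE), or 1.77-fold lower. The 95% interval ran from -0.98 to -0.67, and the limma adjusted p was 9.43e-05. By the size of its fall ZEB1 ranked 151 among 18417 genes. Of 21 measured genes that the literature reports as miR-205 targets, 12 fell (57.1%, against 14.0% of all genes) and 0 rose (0 higher at an unadjusted p under 0.05), and ZEB1 had the second largest fall, after the receptor gene NOTCH2 (-1.40). This list includes ZEB1 and ZEB2, and the limits given below for the other lists hold for it too.

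ZEB2, the paralogue of ZEB1 and likewise a reported miR-205 target, was dim. Its values were 5.62, 5.60 and 5.51 in the control arrays and 5.48, 5.27 and 5.45 with miR-205. The groups did not overlap, but all 6 values lay under 6.12, the 95th percentile of the mean signal of 361 olfactory receptor genes, which served as the dim level. The change was -0.18 ± 0.07 (SE, 95% interval -0.34 to -0.01) with a limma adjusted p of 0.119. A second ZEB2 probe set, annotated to a single cDNA, read 2.64 to 2.89 in the control arrays and 2.64 to 2.81 with miR-205, with overlapping groups. The difference in size between the ZEB1 and ZEB2 changes was not tested.

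TCF4 and TCF3 encode E proteins, the dimer partners of TWIST factors, which can also repress E-cadherin themselves. TCF4 read 9.49, 9.56 and 9.69 in the control arrays and 8.94, 8.94 and 8.93 with miR-205. The miR-205 values were nearly equal and lay well below every control. TCF4 fell by 0.64 ± 0.07 (SE, n = 3 per group, 95% interval -0.80 to -0.49), which is 1.56-fold lower (limma adjusted p = 0.000303). TCF3 read 10.8, 10.9 and 10.9 in the control arrays and 10.6, 10.6 and 10.5 with miR-205. Its groups did not overlap either, with a change of -0.33 ± 0.06 (SE, 95% interval -0.46 to -0.20), or 1.26-fold lower (limma adjusted p = 0.00395). The remaining E protein gene, TCF12, stood outside the set of 10 and changed by -0.31 (limma adjusted p = 0.0136, and 0.0521 or 0.0511 without miR-205 replicate 2 or 3). By the size of their falls TCF4 ranked 343 and TCF3 1567 among all genes.

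**Figure D2:**
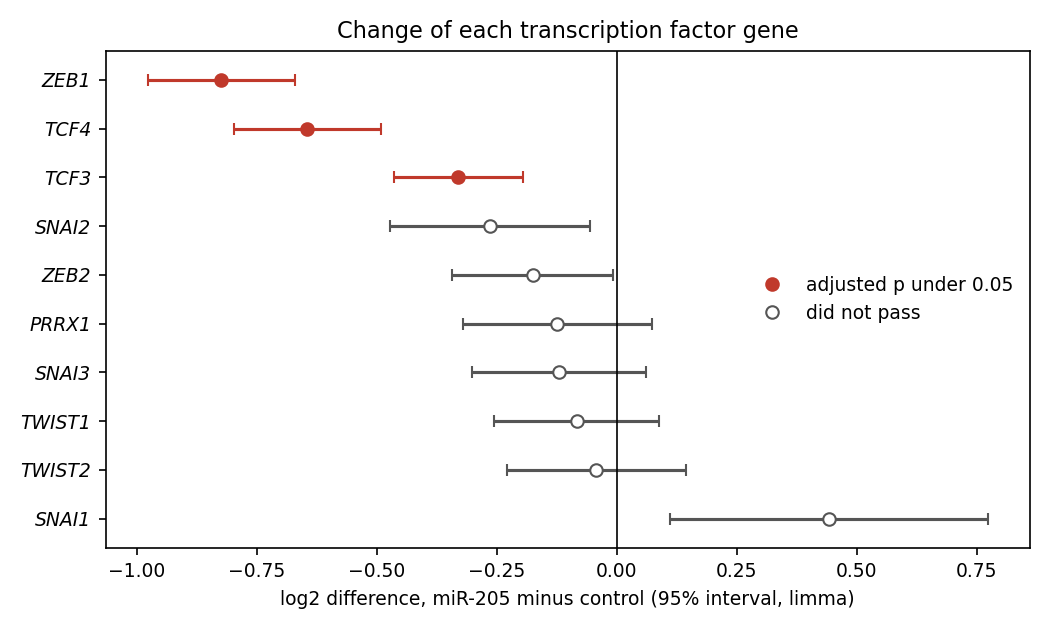
Log2 difference between miR-205 and control arrays for each gene (x axis, points) with its 95% interval from limma (bars), ordered by size; filled red points passed at an adjusted p under 0.05. ZEB1 (-0.82), TCF4 (-0.64) and TCF3 (-0.33) passed, and SNAI1 (0.44) was the only gene of the set with a positive estimate.

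SNAI1 moved with single control arrays, and whether it passed also depended on the setting. It read 6.89, 7.32 and 6.68 in the control arrays and 7.46, 7.28 and 7.48 with miR-205. Negative control replicate 2 lay inside the range of the miR-205 arrays, and the other control arrays lay below all of them. With all arrays the change was 0.44 ± 0.15 (SE, 95% interval 0.11 to 0.77), and it did not pass (limma adjusted p = 0.0538). Without negative control replicate 2 it was 0.62 and passed (adjusted p = 0.00136), and without negative control replicate 3 it was 0.30 (adjusted p = 0.162).

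SNAI2 was bright and leaned the other way. Control values were 12.5, 12.7 and 12.4, and miR-205 values were 12.2, 12.2 and 12.3. The groups did not overlap, but the lowest control and the highest miR-205 value were close (12.40 and 12.34). Its change of -0.26 ± 0.09 (SE, 95% interval -0.47 to -0.06) had a limma adjusted p of 0.0634. Without negative control replicate 2, the highest control, the change was -0.16 (adjusted p = 0.106), and without negative control replicate 3 it was -0.33 (adjusted p = 0.0421).

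SNAI3, the least studied Snail paralogue, ranged from 8.64 to 8.90 in the control arrays and from 8.56 to 8.70 with miR-205, a change of -0.12 (95% interval -0.30 to 0.06). TWIST1 ranged from 9.53 to 9.78 in the control arrays and stayed between 9.59 and 9.61 with miR-205, a change of -0.08 (95% interval -0.26 to 0.09). TWIST2 ranged from 7.80 to 8.08 and from 7.82 to 7.96, a change of -0.04 (95% interval -0.23 to 0.14). The groups overlapped for each of these genes. PRRX1, a homeobox factor of mesenchymal progenitors, was dim in both groups (5.57 to 5.67 and 5.37 to 5.69), with a change of -0.12 (95% interval -0.32 to 0.07). Limma adjusted p-values were 0.317 for SNAI3, 0.472 for TWIST1, 0.76 for TWIST2 and 0.343 for PRRX1. In all, 5 of the 10 genes had miR-205 arrays entirely below the control arrays (ZEB1, ZEB2, SNAI2, TCF3 and TCF4), where 22.2% of all genes did, and 0 had them entirely above, where 19.9% did. Groups that did not overlap in either direction made up 42.2% of all genes.

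The falls of ZEB1, TCF4 and TCF3 passed under all 15 alternative settings tried, while the calls on SNAI2 and SNAI1 moved with the setting. ZEB1 ranged from -0.88 to -0.77, TCF4 from -0.69 to -0.59 and TCF3 from -0.35 to -0.30. SNAI2 passed under 5 of the 15 settings and SNAI1 under 4, each always with the same sign.

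**Figure D3:**
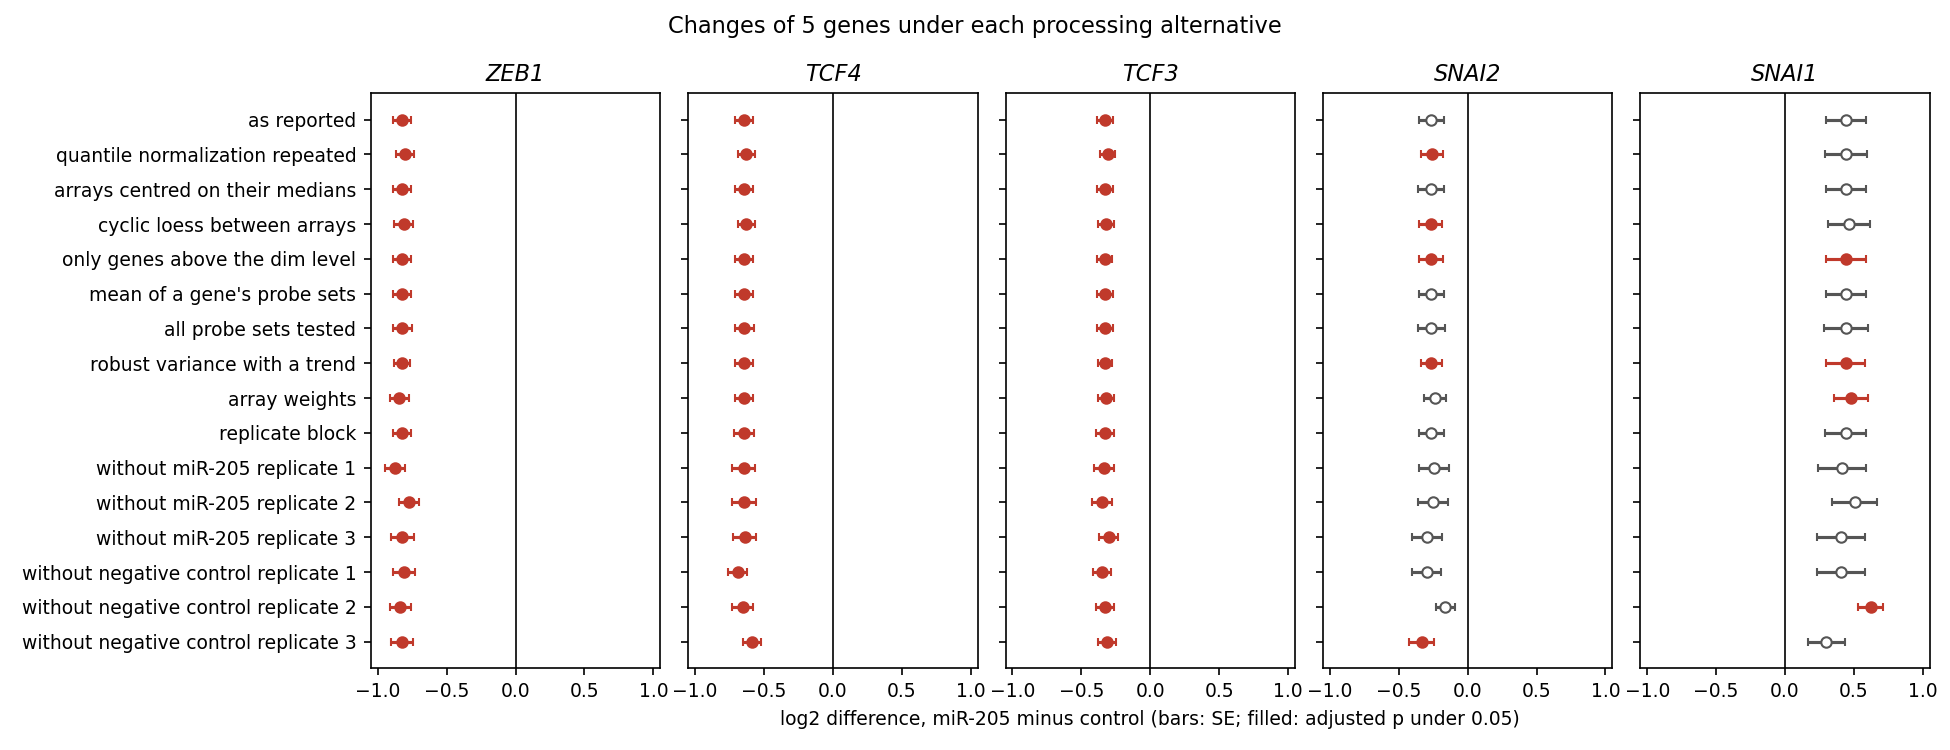
Log2 difference between miR-205 and control arrays (x axis) with its SE (bars) for 5 genes under the setting reported and each alternative (y axis); filled points had an adjusted p under 0.05. ZEB1, TCF4 and TCF3 are filled under every setting, SNAI2 in 5 of the alternatives and SNAI1 in 4, and SNAI1 moves most (0.30 to 0.62) when control arrays are left out.

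The genes whose pattern over the 6 arrays was most like that of ZEB1 were sought among annotated protein-coding genes by the Euclidean distance of mean-centred log2 values. The 5 nearest were STS, steroid sulfatase (distance 0.106), REST, a repressor of neuronal genes (0.121), ZNF302, a zinc finger gene (0.124), PLCXD3 (0.126) and ANKRD6 (0.126). STS had values of 9.54, 9.55 and 9.54 in the control arrays and of 8.86, 8.68 and 8.82 with miR-205. As in ZEB1, replicate 2 was the lowest of its miR-205 arrays. The nearest genes all changed by -0.83 to -0.74, close to the change of ZEB1. These distances describe 6 arrays in 2 groups, and the group difference carries most of each.

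Genes that work with these factors were then counted by role, in lists set beside the same shares over all genes. Because the lists were drawn up with earlier results of these data known, their shares describe the lists. The shares over all genes include dim genes. Among the 13373 genes above the dim level, tested alone, 2498 rose and 2798 fell, larger shares than over all genes. The same limits hold for the reported miR-205 targets, of which 20 of 21 had a mean above the dim level. Of 17 other measured transcription factor genes reported to drive EMT, 5 fell (29.4%, against 14.0% of all genes) and 0 rose (against 12.6%, with 1 higher at an unadjusted p under 0.05). Their median was -0.06. TBX3, a T-box repressor, changed by -0.63 (10.5, 10.5 and 10.6 with miR-205, against 11.0, 11.4 and 11.1). ETS1 (-0.45), SOX9 (-0.43), SOX4 (-0.33) and TCF12 also fell. In these 5 genes no miR-205 array reached a control array. Without negative control replicate 1, 1 gene of this list rose, TCF21, which was dim.

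The corepressors and cofactors of ZEB and Snail factors had a larger share of falls. Of 24 measured genes 15 fell (62.5%, against 14.0% of all genes) and 1 rose, with a median of -0.29. All 24 had a mean above the dim level. CTBP1 and CTBP2 encode the CtBP corepressors of ZEB1. CTBP2 read 11.2, 11.1 and 11.2 in the control arrays and 10.7, 10.8 and 10.9 with miR-205, a change of -0.37 ± 0.06 (SE, limma adjusted p = 0.00358). CTBP1 changed by -0.30 ± 0.06 (SE, limma adjusted p = 0.0061), from 10.9, 11.0 and 11.0 to 10.7, 10.7 and 10.6. The acetyltransferase gene KAT2B (-1.02), LOXL2, a lysyl oxidase that stabilises Snail (-0.70), and the TGF-beta effector SMAD3 (-0.55) had the smallest p-values among the falls. EED, a Polycomb subunit, rose by 0.60, from 8.65, 8.60 and 8.82 to 9.28, 9.33 and 9.26, and without miR-205 replicate 3 a second gene, AJUBA, rose with it. The histone deacetylase genes HDAC1 (0.05) and HDAC2 (0.05) did not pass. Both were named after their values were seen.

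Of 12 genes for dimer partners and inhibitors of the helix-loop-helix factors, 1 rose (8.33%, against 12.6% of all genes) and 1 fell (8.33%, against 14.0%). ID3, whose product sequesters E proteins, rose by 0.33 (limma adjusted p = 0.0118), and TCF12 fell. ID3 read 8.79, 8.80 and 8.78 in the control arrays and 9.08, 9.01 and 9.27 with miR-205, so its groups did not overlap. Without negative control replicate 2, 3 genes of this list fell, TCF12, LYL1 and MSC, the last of them dim, and without miR-205 replicate 2 or 3, 0 fell. ID1 (0.01) and ID2 (-0.08), likewise E protein inhibitors named after their values were seen, did not pass.

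Enzymes that set the stability of Snail and ZEB proteins were split. Of 19 measured, 4 rose (21.1%, against 12.6% of all genes) and 3 fell (15.8%, against 14.0%), with a median of -0.03. OTUB1, a deubiquitinase, rose by 0.35, CTDSP1, a phosphatase of Snail, by 0.20, and COPS5, a COP9 signalosome subunit, by 0.28. The kinase gene PRKD1 changed by -0.29. These counts were small and changed when 1 array was left out, as did the counts over all genes. Without miR-205 replicate 1, 2 or 3 or negative control replicate 1, 1 gene rose. Over all genes 1588 to 1711 rose in those settings, against 2320. Without miR-205 replicate 2 or 3 or negative control replicate 1 or 3, 0 genes fell, and without miR-205 replicate 1, 1 fell. Over all genes 1777 to 2098 fell in those settings, against 2586.

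Genes of signalling pathways upstream of the factors leaned downward. Of 25 measured, 11 fell (44%, against 14.0% of all genes) and 0 rose (0 higher at an unadjusted p under 0.05), with a median of -0.17. The falls include SMAD7 (-0.45), whose product inhibits TGF-beta signalling, so the count is not of activating genes alone. TGFBR2, a receptor for TGF-beta, read 12.1, 12.1 and 12.0 in the control arrays and 11.4, 11.5 and 11.5 with miR-205, a change of -0.65. The receptor genes NOTCH2 (-1.40, also on the list of reported miR-205 targets), FGFR1 (-0.63) and EGFR (-0.50) completed the clearest falls.

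**Figure D4:**
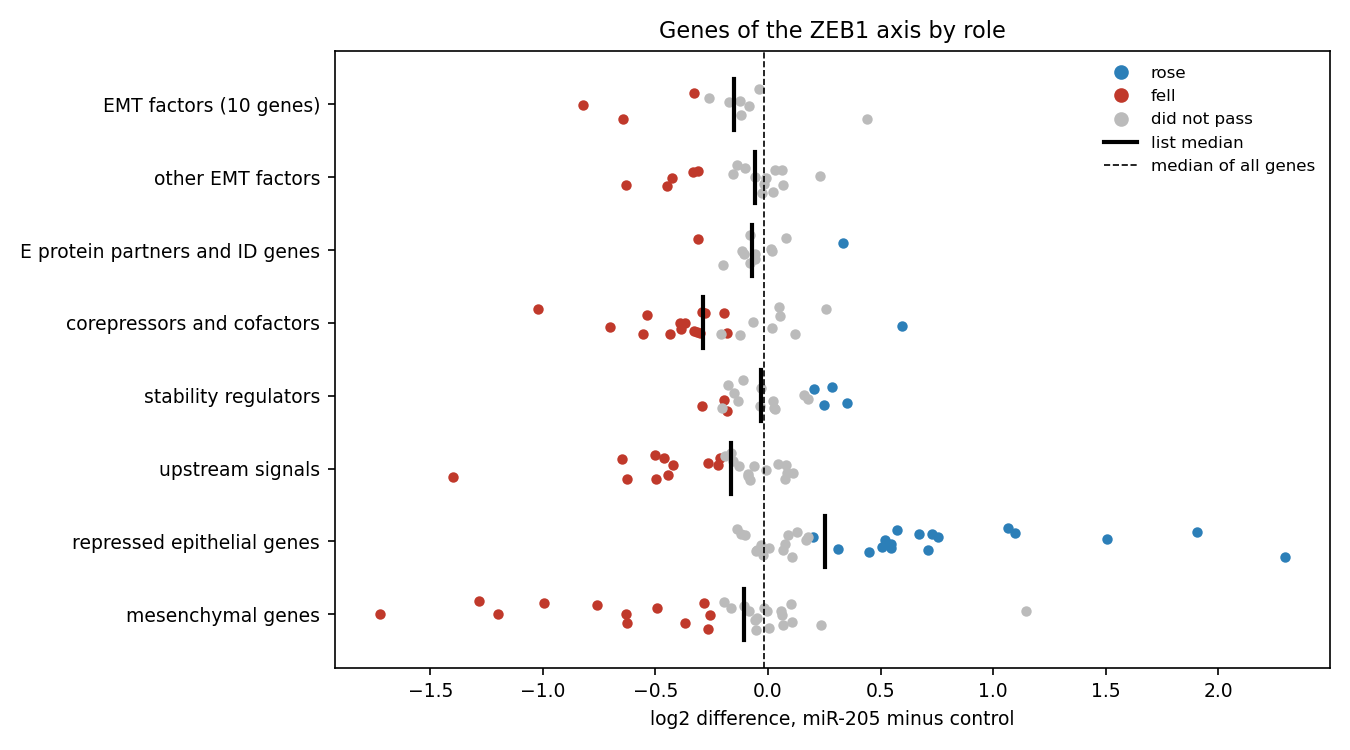
Log2 difference between miR-205 and control arrays (x axis) for each measured gene (points) of 8 groups of the ZEB1 axis (y axis), blue where the gene rose, red where it fell and grey where it did not pass; thick bars are list medians and the dashed line is the median of all genes (-0.02). Calls among corepressors (15 of 16), upstream signals (11 of 11) and mesenchymal genes (12 of 12) are falls, and those among repressed epithelial genes (17 of 17) are rises.

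Downstream, epithelial genes reported to be repressed by ZEB or Snail factors were often higher. Of 32 measured, 17 rose (53.1%, against 12.6% of all genes) and 0 fell (0 lower at an unadjusted p under 0.05), with a median of 0.26. CDH1, which encodes E-cadherin, read 6.34, 6.30 and 6.21 in the control arrays and 8.15, 8.25 and 8.18 with miR-205. EPCAM, an epithelial adhesion gene, read 6.61, 6.97 and 6.91 and then 9.17, 9.16 and 9.04. In both genes every miR-205 array stood above every control array by far more than the spread within either group. CDH3, the P-cadherin gene, rose from a mean of 7.06 to 8.16, and PKP3, a desmosomal plakophilin, rose by 0.73. The polarity gene CRB3 (-0.10) and the claudin genes CLDN3 (0.08), CLDN4 (-0.14) and CLDN7 (-0.02), all reported as repressed genes and named after their values were seen, did not pass. Neither did the epithelial regulators GRHL2 (0.13) and OVOL2 (-0.12), both dim and also named after their values were seen, but without negative control replicate 2, OVOL2 fell.

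Mesenchymal genes that EMT factors are reported to raise moved the other way where they passed. Of 29 measured, 12 fell (41.4%, against 14.0% of all genes) and 0 rose (1 higher at an unadjusted p under 0.05), with a median of -0.11. CDH11, a mesenchymal cadherin, read 12.4 on each control array and 11.1 on each miR-205 array, a change of -1.28. NT5E, the CD73 ectonucleotidase (-1.72), the matrix gene TNC (11.1 in the control and 9.86 with miR-205) and the integrin gene ITGA5 (-0.76) also fell. ITGA5 is also on the list of reported miR-205 targets. The falls of FGFR1 and WNT5A are counted both here and among the upstream signals. VIM (-0.26) and CDH2 (-0.37), the vimentin and N-cadherin genes used to define the mesenchymal state, fell less and were named after their values were seen. CCN2, a matricellular gene also named afterwards, was far higher in negative control replicate 2 (13.2) than in the other control arrays (11.5 and 11.7), and close to the 13.2 to 13.4 of the miR-205 arrays. Without that array it rose, the only rise in the list.

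**Figure D5:**
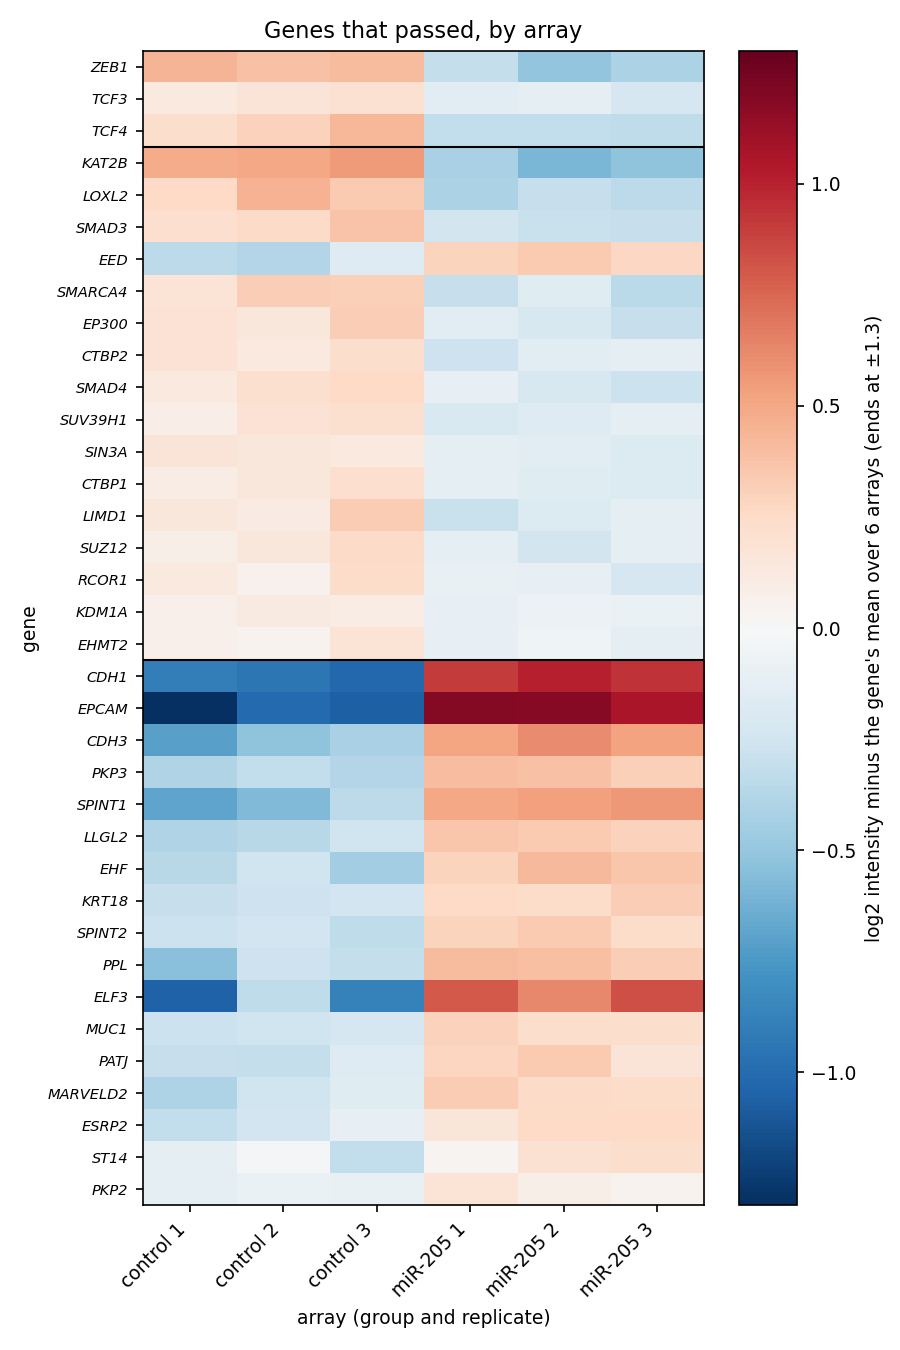
Log2 intensity minus the gene's mean over the 6 arrays (colour, red higher and blue lower) for ZEB1, TCF3 and TCF4 (top), the corepressors and cofactors that passed (middle) and the repressed epithelial genes that passed (bottom), by array. All but EED of the upper and middle blocks are higher in the 3 control arrays, and the bottom block is higher in the 3 miR-205 arrays; for ELF3 negative control replicate 2 is the highest of the control arrays.

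The E-box that ZEB1 and Snail factors bind was looked for in RefSeq promoters (GRCh38.p14, 250 bases before to 50 after a start site), as CACCTG on either strand, which reads CAGGTG on the other. Promoters were found for 15 of the 32 measured epithelial genes, and 11 of the 15 (73.3%) held the motif in at least 1 window, against 24.1% of all 27305 genes in the promoter table. Since the list was drawn from genes reported as ZEB or Snail targets, that share describes the list. It was 4 of the 6 genes that rose and 7 of the 9 that did not pass. No promoter was found for CDH1, EPCAM or CDH3. Among the transcription factor genes themselves, promoters were found for 6 of 10, and ZEB1 alone held the motif, in 2 of its 7 windows.

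Of these promoters, 2 of genes that rose (ELF3 and PATJ), 2 of genes that did not pass (CRB3 and CLDN7) and 1 of ZEB1 itself are shown with the motif in capitals, to set the arrangement of motifs beside the change. They were chosen after their values were seen.
ELF3, chr1:202010337-202010636, plus strand: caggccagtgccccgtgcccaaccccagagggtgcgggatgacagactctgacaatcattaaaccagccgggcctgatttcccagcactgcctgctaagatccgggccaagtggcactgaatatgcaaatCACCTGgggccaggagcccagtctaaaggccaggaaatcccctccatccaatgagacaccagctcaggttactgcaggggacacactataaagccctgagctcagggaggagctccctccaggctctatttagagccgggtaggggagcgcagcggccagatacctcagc
PATJ, chr1:61742230-61742529, plus strand: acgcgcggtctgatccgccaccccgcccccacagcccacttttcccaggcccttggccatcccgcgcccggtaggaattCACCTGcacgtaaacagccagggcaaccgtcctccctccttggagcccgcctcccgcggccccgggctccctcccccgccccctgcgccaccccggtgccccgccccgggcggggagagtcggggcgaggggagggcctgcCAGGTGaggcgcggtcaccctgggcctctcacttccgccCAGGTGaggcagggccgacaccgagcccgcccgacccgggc
CRB3, chr19:6464021-6464320, plus strand: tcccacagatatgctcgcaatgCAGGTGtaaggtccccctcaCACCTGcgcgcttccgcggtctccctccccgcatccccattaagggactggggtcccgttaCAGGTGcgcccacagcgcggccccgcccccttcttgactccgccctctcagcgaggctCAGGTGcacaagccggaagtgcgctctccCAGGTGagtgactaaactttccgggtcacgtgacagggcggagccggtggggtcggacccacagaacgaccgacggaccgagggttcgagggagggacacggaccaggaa
CLDN7, chr17:7262429-7262728, minus strand: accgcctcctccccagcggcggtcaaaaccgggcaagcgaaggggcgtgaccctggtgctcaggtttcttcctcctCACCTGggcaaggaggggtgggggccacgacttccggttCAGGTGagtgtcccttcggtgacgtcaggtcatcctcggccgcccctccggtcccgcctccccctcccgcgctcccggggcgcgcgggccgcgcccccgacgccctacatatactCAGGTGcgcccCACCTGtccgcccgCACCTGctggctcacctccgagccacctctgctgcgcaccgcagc
ZEB1, chr10:31318966-31319265, plus strand: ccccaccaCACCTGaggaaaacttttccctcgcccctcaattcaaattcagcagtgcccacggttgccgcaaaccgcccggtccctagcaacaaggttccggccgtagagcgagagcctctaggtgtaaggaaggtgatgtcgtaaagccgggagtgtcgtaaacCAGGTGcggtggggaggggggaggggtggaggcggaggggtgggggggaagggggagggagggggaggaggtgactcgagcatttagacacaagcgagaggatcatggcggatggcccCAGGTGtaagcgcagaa
CRB3 and CLDN7 each held 5 motifs in the window shown and did not pass. ELF3, an epithelial ETS factor, held 1 and rose by 1.51, and PATJ, a polarity scaffold gene, held 3 and rose by 0.52. Other promoters did not sort by motif count. MUC1 held 2, SPINT1 at most 1 per window and EHF and MARVELD2 held 0, and these genes rose. DSP and RAB25 held 2, CDS1 and CLDN3 held 1 and TJP3 at most 1 per window, and these genes did not pass. Neither did CGN and CLDN4, which held 0. RAB25 was dim. ELF3 read 7.66, 8.38 and 7.83 in the control arrays and 9.51, 9.34 and 9.55 with miR-205.

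Probe sets for the microRNA genes of the axis gave little signal. Of 17 measured, 3 had a mean above the dim level. In all, 1 rose (5.88%, against 12.6% of all genes) and 0 fell (against 14.0%, with 3 lower at an unadjusted p under 0.05). The gene that rose, MIR30E, was dim (4.69 in the control and 4.95 with miR-205). None of the 5 miR-200 family genes, named after their values were seen, passed. MIR141 came nearest, with 4.11, 4.02 and 4.21 in the control arrays and 3.90, 3.57 and 3.98 with miR-205, all dim and without overlap (-0.30, limma adjusted p = 0.0751). The groups overlapped for MIR429 (0.09), MIR200B (0.04), MIR200A (0.12) and MIR200C (-0.10). Without negative control replicate 2, 3 genes of this list fell, MIR30A, MIR33A and MIR150. The antisense gene SNAI3-AS1 ranged from 5.62 to 6.57 in the control arrays and from 5.78 to 6.69 with miR-205, so its groups overlapped.

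Markers of the labelled cell type and of other cells were read on the same arrays. The luminal keratin genes KRT8 (11.2 in the control and 12.1 with miR-205) and KRT18 (11.4 and 11.9) were bright and rose. HOXB13 was bright and fell by 0.73. KLK3, the androgen-regulated PSA gene, was dim in both groups (6.08 and 6.06), close under the dim level of 6.12. The kallikrein gene KLK2 lay above that level (6.39 and 6.38) and did not pass. In all, 4 of the 5 measured luminal markers had a mean above the dim level. Of 5 measured luminal markers 2 rose and 1 fell (60% changed, against 26.6% of all genes). The 5 measured basal markers had the same counts, with ITGB4 (0.77) and KRT15 (0.32) rising and CD44 (-0.28) falling. KRT15 did not pass under 7 of 15 alternatives (limma adjusted p up to 0.125). KRT5, a defining basal keratin, was dim, but 4 of the 5 basal markers had a mean above the dim level. KRT14, another basal keratin gene, was 1 of them (7.43 in the control and 7.51 with miR-205) and did not pass. KRT14 and KLK2 were named after their values were seen. Of 8 fibroblast markers 5 had a mean above the dim level, 1 rose (LUM, dim, 0.36) and 1 fell (PDGFRA, -0.31), which is 25% against the same 26.6%. LUM did not pass under 9 of 14 alternatives (limma adjusted p up to 0.116) and PDGFRA under 8 of 15 (up to 0.158). Their mean level was 5.86 to 5.97 over the control arrays and 5.90 to 6.02 over the miR-205 arrays. Of 6 leukocyte markers 2 lay above the dim level and 0 changed (against 26.6%, with 0 higher and 1 lower at an unadjusted p under 0.05), with mean levels of 5.86 to 5.94 and 5.81 to 5.87, and PTPRC stood at 3.61 in both groups.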

How the data were processed

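AGO2-bound RNA of PC3 cells was hybridised to Affymetrix gene arrays, 3 per group. The values deposited by the authors are log2 intensities. The submitters' processing notes name RMA and Expression Console 1.1.2, and the values were not normalized again. Of 33297 probe sets, 19460 carried 1 gene symbol in the platform annotation. The brightest per gene gave 18417 genes, and 0 columns of values were unused. A linear model per gene with the group alone was fitted by lmFit and moderated by eBayes (limma 3.58.1, R 4.3.3). Two-sided p-values were adjusted over all genes by Benjamini-Hochberg, with a threshold of 0.05. Lists are described by counts and medians, without a set test. RMA can make differences between dim probe sets smaller than they are, and the number of arrays limits the precision.

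The 10 genes, the lists and the rules were chosen with earlier results of these data known. Named were the 10 genes with every probe set of theirs, the 5 genes nearest to ZEB1, in each list the genes with the lowest p that passed (at most 4), and CDH1, EPCAM, CTBP1, CTBP2, KRT8, KRT18 and KLK3. Another gene under the rule is not reported here. The test was checked on simulated data. Alternatives covered normalization, dim genes, probe set summaries, features tested, variance model, weights per array, a block on the replicate number, and each array left out in turn.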

Additional observations from a re-analysis of the deposited data

How the results depend on the processing

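Of 361 counts and other summary values recomputed under alternatives, 326 stayed within 1.5 times of the value reported. Counts that stayed at 0 are among the 326, and lists with few measured genes could hardly move. With 1 array left out, 1588 to 2668 of all genes rose and 1777 to 2881 fell. The count of transcription factor genes that rose went from 0 to 1, SNAI1, with only genes above the dim level, with a robust variance with a trend and with array weights, and ranged from 0 to 1 with 1 array left out. Corepressor rises became 2 with the robust variance and with the replicate block (1 to 2 with 1 array left out). Mesenchymal rises became 1, CCN2, with only genes above the dim level, array weights or the replicate block (0 to 1 with 1 array left out). Falls of microRNA genes became 1 with arrays centred on their medians or the robust variance, 2 with array weights and 3, MIR141 among them, with the replicate block (0 to 3 with 1 array left out). Rises of microRNA genes became 0 above the dim level, a setting that leaves out MIR30E as dim before any test. MIR30E passed under the 14 alternatives in which it was tested. Stability regulators had 2 rises and 0 falls with all probe sets tested and 1 fall with the replicate block (1 to 3 rises and 0 to 3 falls with 1 array left out). With 1 array left out, E protein partner and ID genes had 0 to 3 falls, other EMT factors 0 to 1 rises and repressed epithelial genes 0 to 1 falls. By Pearson correlation in place of distance, 1 of the 5 genes nearest to ZEB1, STS, was the same. TWIST2 ranged from -0.108 to 0.0325 and KLK3 from -0.0735 to 0.0234 with 1 array left out, and both were positive only without negative control replicate 1. Samples share only a replicate number: deviations of same-numbered arrays correlated at 0.06, 0.09 and 0.01, and each of the 3 miR-205 arrays correlated best with the control array of its own number. With the replicate block 2204 genes rose and 2423 fell, against 2320 and 2586, and 3 of the transcription factor genes fell and 0 rose. Signal over background limits ZEB2, PRRX1 and the microRNA genes.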
